A study of Mus musculus with 89 samples.

Results

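Mouse embryonic stem cells (ESCs) depleted of Esrrb were compared by RNA-seq with and without the orphan nuclear receptor Nr5a2 in 2i/LIF, a serum-free medium in which ESCs are held in a naive state by inhibitors of Mek and Gsk3 and by the cytokine LIF. The comparison holds 6 libraries, chosen by their labels, of the 20 RNA-seq libraries and 89 samples of the series. All 6 come from EKOiE ESCs, which carry a knockout of their own Esrrb and an Esrrb transgene that doxycycline (Dox) switches on, and all were grown for 2 days without Dox. The 3 libraries of −E are EKOiE cells with intact Nr5a2. The 3 libraries of −E−N are EKOiE NrKO cells, in which the fourth exon of Nr5a2 was disrupted on both alleles. The same cells kept with 1 µg/ml Dox, +E+N for EKOiE and −N for EKOiE NrKO, gave 3 libraries each and show the effect of the same disruption with the transgene on. In FCS/LIF, a serum medium, −E and −E−N have 2 libraries each. The labels do not give the NrKO clone, and the supplement names a single clone for RNA-seq. Within these libraries, a property of the clone thus cannot be told apart from the absence of Nr5a2. The paper reports that repair of a disrupted Nr5a2 allele rescued self-renewal and reversed the expression changes it followed by qPCR. No RNA-seq library is labelled as repaired cells, so reversal of the changes below was not tested. The paper's legends call the points of its 2i/LIF RNA-seq plots independent experiments. The labels do not say whether replicates came from separate cultures or what same-numbered libraries share, and the p-values measure the spread between these libraries.

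Nr5a2 and Esrrb are zinc finger transcription factors (TFs) that bind DNA as monomers at a nuclear receptor half-site preceded by a short extension. In ESCs both sit near the enhancers of pluripotency genes, such as those of Nanog and Klf4, and are counted among the auxiliary TFs that assist Oct4 (encoded by Pou5f1) and Sox2. Outside ESCs, Nr5a2 is known for bile acid and steroid synthesis in liver, gut and ovary, and in the early embryo it takes part in genome activation.

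The disrupted exon is shown since it defines the −E−N cells. In the transcript Nr5a2-205, which has 9 exons, exon 4 spans chr1:136944959-136945077 on the minus strand of GRCm38.p6 (the assembly of mm10) and is 119 bp long, all of it coding. It encodes the start of the DNA-binding domain. Capitals mark the 4 in-frame TGT or TGC codons, which stand for cysteine, the residue that holds the zinc in this type of finger.
Nr5a2-205 exon 4: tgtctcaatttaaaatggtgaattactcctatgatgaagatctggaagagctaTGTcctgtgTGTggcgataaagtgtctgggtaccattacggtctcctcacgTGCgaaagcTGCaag
Promoters of genes that fell were searched for the 9-letter site TCAAGGTCA and its variant TCAAGGCCA, on both strands of the RefSeq windows that reach from 250 bases before to 50 bases after a gene's start. Stretches from the windows of 2 pluripotency genes that were lower in −E−N are given as examples, with the match in capitals and 10 bases on each side. That of Khdc3 (chr9:73102180-73102208 on the plus strand) carries the match on its opposite strand, 208 bases before the RefSeq start of the window, which lies inside the gene as GENCODE annotates it. That of Zfp42 (chr8:43307209-43307237 on the minus strand) carries it 218 bases before the RefSeq start.
Khdc3: gagattagatTGGCCTTGAagtcaggtaa
Zfp42: tgactgagtcTCAAGGCCAggcgatcggg
A window was matched for 10446 of the 14348 tested genes with distinct symbols, and either form was found in 84 of them (0.804%). Among genes lower in −E−N, 15 of 659 (2.28%) held it, 7 as TCAAGGTCA and 8 as TCAAGGCCA. Among genes higher in −E−N, 2 of 690 (0.29%) held it, both as TCAAGGCCA. Over all 27025 genes with a window the share was 1.15%. These are counts of letters in a short window, with no test, and enhancers lie outside it.

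The 6 libraries held between 27996686 and 30685767 counts. Replicates differed by more than sampling noise in each pair, with chi-square values of 8.44 to 31.1 for each degree of freedom. In −E the pairs with replicate 1 were the further apart, and in −E−N the pairs with replicate 3. On the first principal component of the 12 libraries in 2i/LIF, which held 56.7% of the variance, −E lay at -29.3, -30.2 and -17.3 and −E−N at 64.9, 63.1 and 76.3. An exact permutation test of 3 libraries against 3 gives no p under 0.1. Values below are CPM, counts scaled to a common library size after TMM normalisation, in the order of replicates 1, 2 and 3. They compare libraries for one gene and not genes with each other.

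The targeted genes were examined first. Esrrb (ENSMUSG00000021255, chromosome 12 from 86361117 to 86521628 in mm10) was at 440.2, 426 and 375 CPM in −E and 169.8, 160.2 and 104 CPM in −E−N, while the libraries with Dox held 506, 601 and 599 CPM in +E+N and 406, 522 and 519 CPM in −N. Counts of Esrrb were thus lower in −E−N than in −E in every library (log2 fold change of -1.51, standard error 0.162 and adjusted p = 2.87e-05). Adjusted p here and below are those of the quasi-likelihood test of edgeR after Benjamini-Hochberg adjustment. Reads over the whole gene may come from the transgene or from transcript of the knocked-out gene, and −E was not free of Esrrb reads. By these counts Esrrb was not called lower in −E than in +E+N (log2 fold change of -0.46 with adjusted p = 0.116). The paper reports from ChIP-seq that Esrrb binding was lost once Dox was withdrawn. Depletion in −E thus rests on the label and on that report, not on these counts. As −E and −E−N were not matched for Esrrb counts, the part of this difference in the results below was not tested. Nr5a2 (ENSMUSG00000026398, chromosome 1 from 136842571 to 136960448) was at 52.1, 45.8 and 41.6 CPM in −E and 45.7, 34.3 and 21.0 CPM in −E−N. The groups overlap, and the difference was not past the threshold (log2 fold change of -0.47, standard error 0.211 and adjusted p = 0.113). The other exons lie outside the disrupted one, so the count includes transcript that carries the lesion and does not check the labels. Per the supplement, only gapped reads aligned to the deleted region in the NrKO clone it names, and qPCR found no intact transcript.

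Of 14355 genes tested, 1883 (13.1%) were called, at an adjusted p under 0.01 and a fold change over 1.5. Higher in −E−N were 991 genes (6.90%) and lower 892 (6.21%), and the median over all tested genes was -0.0044 on the log2 scale. The 3 libraries of −E−N lay all above those of −E for 3045 genes (21.2% of those tested) and all below for 3130 (21.8%). The threshold on the fold change passed close to Pou5f1, which lay just outside at -0.58, next to Cfl2 and Kifc2, while Mgat4b, Creb1 and Commd7 lay just inside it. The imprinted genes H19, Igf2 and Peg10 were among the largest rises, and Khdc3, Inhbb and Dpp4 were among those that fell furthest.

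**Figure D1:**
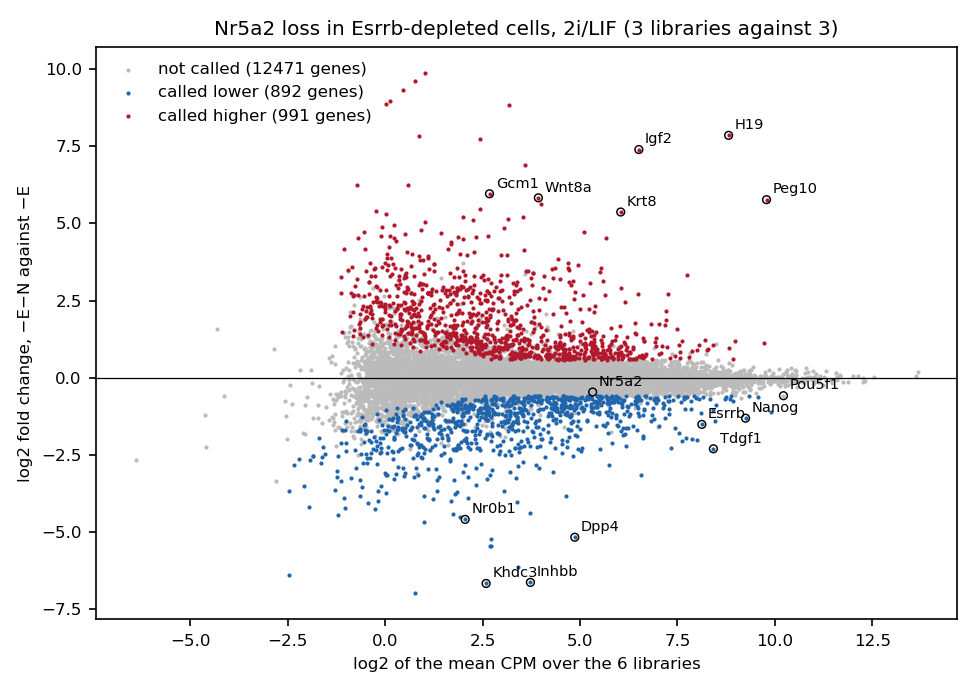
Change after loss of Nr5a2 in Esrrb-depleted cells against level. The horizontal axis is the log2 of the mean CPM over the 6 libraries and the vertical axis the log2 fold change of −E−N against −E. Points are genes, red for the 991 called higher, blue for the 892 called lower and grey for those not called (1 tested gene with no count in the 6 libraries is not drawn). Calls lie on both sides of 0 at most levels, and the rises reach further than the falls.

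Most of the naive pluripotency genes fell. Of 26 tested, 19 were lower (73.1%, against 6.21% of all tested genes) and 2 were higher, with a median of -1.10 on the log2 scale. Without any 1 of the 6 libraries the number lower was between 16 and 19. The summed level of the list was between 4607 and 4975 CPM in −E and between 2413 and 3116 CPM in −E−N, with no overlap. In bulk RNA, fewer cells that express a gene and less RNA of it per cell cannot be told apart. Khdc3 (ENSMUSG00000092622, chromosome 9 from 73101836 to 73104438), a member of the maternal complex of the egg that ESCs also express, was at 12.8, 13.3 and 9.76 CPM in −E and 0.0652, 0.141 and 0.136 CPM in −E−N. It was close to absent from all 3 libraries without Nr5a2 (log2 fold change of -6.67, standard error 0.415 and adjusted p = 5.55e-07). Nr0b1 (ENSMUSG00000025056, chromosome X from 86191764 to 86195947), which encodes the Dax1 corepressor and is a known target of Nr5a receptors, was at 12.6, 5.16 and 6.21 CPM in −E and 0.586, 0.176 and 0.203 CPM in −E−N. The highest −E−N library lay about an order of magnitude below the lowest −E library (log2 fold change of -4.59, standard error 0.457 and adjusted p = 1.72e-05).

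The fall extended to genes that encode TFs of the naive network. Klf4 (ENSMUSG00000003032, chromosome 4 from 55527143 to 55532466) was at 66.1, 87.1 and 81.7 CPM in −E and 28.6, 34.2 and 35.1 CPM in −E−N (log2 fold change of -1.26, standard error 0.148 and adjusted p = 5.87e-05). Tbx3, a T-box TF, was at 116, 153 and 129.6 CPM in −E and 63.1, 70.4 and 62.2 CPM in −E−N (log2 fold change of -1.02 with adjusted p = 4.58e-05). Prdm14, which restrains Fgf signalling and DNA methylation in ESCs, was at 54.5, 55.5 and 47.3 CPM in −E and 19.9, 20.8 and 19 CPM in −E−N (log2 fold change of -1.40 with adjusted p = 3.39e-07). In all 3 the groups are well separated, and none of these calls was lost without any 1 library. Zfp42, the Rex1 gene shown above for the site in its promoter, was at 441, 471 and 472 CPM in −E and 215, 255 and 193 CPM in −E−N (log2 fold change of -1.06 with adjusted p = 2.49e-05). Klf5 was called (log2 fold change of -0.81 with adjusted p = 0.00896), but not without −E−N replicate 1, 2 or 3 or −E replicate 2 or 3 (log2 fold changes between -0.95 and -0.63, adjusted p between 0.0112 and 0.042). Klf2 was at 263, 339 and 327 CPM in −E and 284, 303 and 225 CPM in −E−N (log2 fold change of -0.19 with adjusted p = 0.245), and Tfcp2l1 at 528, 507 and 434 CPM in −E and 492, 446 and 312 CPM in −E−N (log2 fold change of -0.23 with adjusted p = 0.207). Both overlap between the groups and were not past the threshold.

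Further naive markers fell as well. Dppa5a, an RNA-binding protein gene, was at 1429, 1304 and 1181 CPM in −E and 672, 649 and 470.2 CPM in −E−N (log2 fold change of -1.13 with adjusted p = 2.03e-05). Dppa2 was at 297, 223 and 266 CPM in −E and 86.5, 90.7 and 76.8 CPM in −E−N (log2 fold change of -1.63 with adjusted p = 2.98e-06) and its neighbour on chromosome 16, Dppa4, at 64.1, 72.4 and 75.7 CPM in −E and 39.0, 52.1 and 39.6 CPM in −E−N (log2 fold change of -0.70 with adjusted p = 0.00249). The call of Dppa4 was lost without −E−N replicate 1 or 3 or −E replicate 2 or 3 (log2 fold changes between -0.68 and -0.63, adjusted p between 0.0105 and 0.0121). Ooep, which belongs to the same maternal complex as Khdc3, was at 74.4, 73.9 and 66.7 CPM in −E and 26.0, 25.5 and 22.5 CPM in −E−N (log2 fold change of -1.54 with adjusted p = 1.88e-06). Jam2, which encodes a junction adhesion protein, was at 87.9, 73.8 and 66.3 CPM in −E and 17.4, 16.5 and 11.5 CPM in −E−N (log2 fold change of -2.32 with adjusted p = 1.05e-06). Tet2, Pecam1, Tcl1 and Mras were also lower, with log2 fold changes of -1.25, -1.18, -1.07 and -1.07. Fbxo15 was just past the threshold on the fold change (log2 fold change of -0.61 with adjusted p = 0.000239) and inside it without −E replicate 1 or −E−N replicate 2 or 3 (log2 fold changes between -0.57 and -0.52, adjusted p between 0.000736 and 0.00166). Manba, Tdh and Rex2 were not called, at -1.59, -0.63 and -0.40.

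Dppa3 and Gbx2 went the other way. Dppa3 (ENSMUSG00000046323, chromosome 6 from 122626410 to 122630272), which encodes Stella and protects the maternal genome from demethylation in the zygote, was at 18.4, 22.7 and 25.0 CPM in −E and 133, 110.0 and 122 CPM in −E−N (log2 fold change of 2.46, standard error 0.340 and adjusted p = 0.000198). Gbx2, a homeobox TF gene induced by LIF, was at 70.9, 61.5 and 85.2 CPM in −E and 164, 181 and 185 CPM in −E−N (log2 fold change of 1.28, standard error 0.107 and adjusted p = 4.37e-06). No −E library reached the level of any −E−N library for either gene.

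Among the core pluripotency genes 3 of 11 tested were lower (27.3%) and 1 was higher (9.09%), against 6.21% and 6.90% of all tested genes. Tcf3 of this list is another gene than Tcf7l1, the nuclear effector of Wnt signalling given below, and was not called. Nanog (ENSMUSG00000012396, chromosome 6 from 122707489 to 122714633) was at 864, 907 and 828 CPM in −E and 369, 343 and 333 CPM in −E−N, a drop shared by all 3 libraries (log2 fold change of -1.31, standard error 0.0956 and adjusted p = 1.6e-06). Tdgf1 (ENSMUSG00000032494, chromosome 9 from 110939603 to 110946158), the Nodal co-receptor Cripto, was at 394, 636 and 682 CPM in −E and 85.1, 132 and 129 CPM in −E−N (log2 fold change of -2.31, standard error 0.282 and adjusted p = 8.41e-05). L1td1, an RNA-binding protein gene derived from a transposon, fell by 0.89 on the log2 scale (adjusted p = 0.00137). Pou5f1 was at 1655, 1353 and 1281 CPM in −E and 1090.2, 1039 and 730.2 CPM in −E−N. Its estimate, -0.58 with an adjusted p of 0.00441, passed the limit on p and missed that on the fold change by less than 0.001. It was called by DESeq2, and without −E−N replicate 1, −E−N replicate 2 or −E replicate 3 (log2 fold changes of -0.70, -0.66 and -0.65). Sox2 was at 152, 215 and 209.7 CPM in −E and 129, 163 and 139 CPM in −E−N (log2 fold change of -0.42 with adjusted p = 0.0343), with overlap between the groups. Lin28a, whose product blocks maturation of let-7 and which marks the exit from the naive state, was at 106, 69.2 and 97.9 CPM in −E and 268, 280.3 and 265 CPM in −E−N, higher in every −E−N library (log2 fold change of 1.57 with adjusted p = 9.72e-05).

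**Figure D2:**
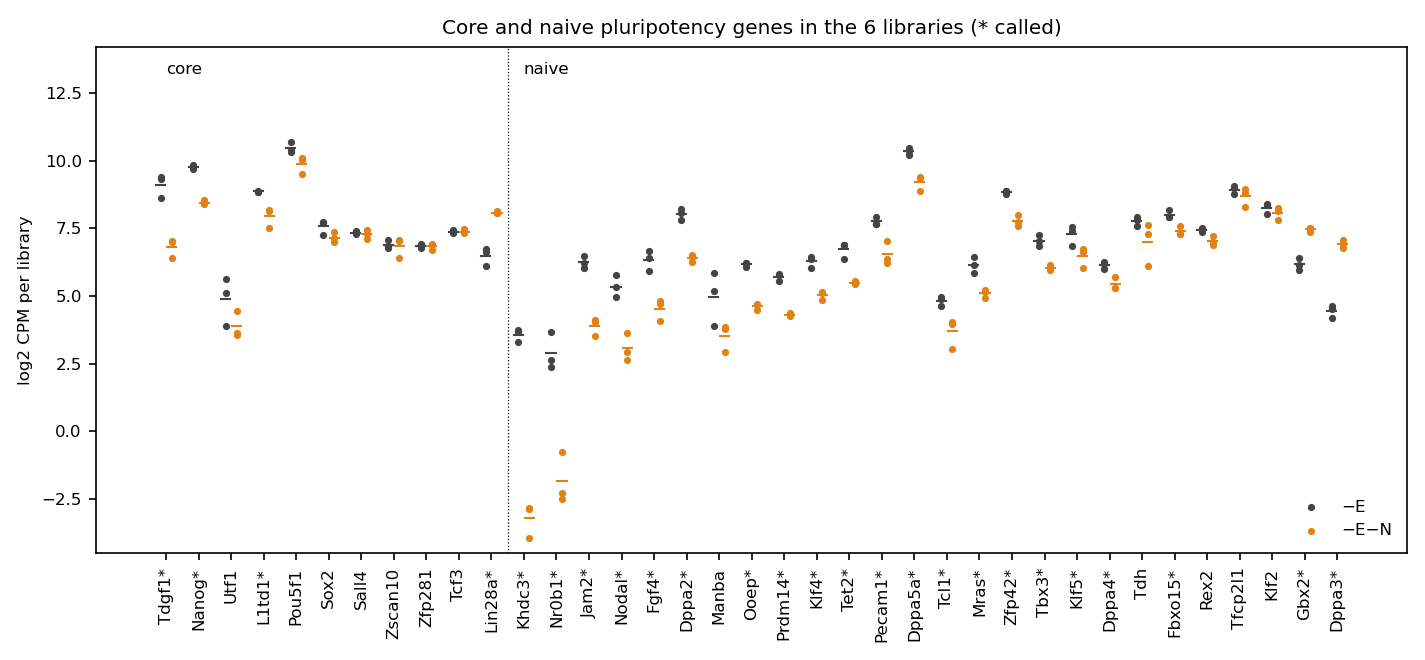
Core and naive pluripotency genes in each library. The vertical axis is the log2 of CPM and each dot 1 library, dark grey for −E and orange for −E−N, with a bar at the mean of the 3 log2 values. Genes are sorted within each list by their change, and an asterisk marks the called ones. Separate clouds of dots are seen for Khdc3 and Nr0b1 at the left of the naive list, overlapping clouds for Tfcp2l1 and Klf2, and the reverse order for Gbx2, Dppa3 and Lin28a.

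Genes of the trophectoderm, the first extraembryonic lineage, mostly rose. Of 17 tested, 11 were higher (64.7%, against 6.90% of all tested genes) and 2 lower, with a median of 2.74. The number higher was between 10 and 12 without any 1 library, and the median was 1.70 without −E−N replicate 3. Summed over the list, the level was between 126 and 149 CPM in −E and between 446 and 707 CPM in −E−N. Krt8 (ENSMUSG00000049382, chromosome 15 from 101996698 to 102004482) was at 3.64, 2.44 and 3.28 CPM in −E and 110.0, 92.0 and 185 CPM in −E−N, and its partner Krt18 (ENSMUSG00000023043, chromosome 15 from 102028180 to 102032027) at 3.35, 3.96 and 5.33 CPM in −E and 82.6, 76.6 and 131 CPM in −E−N. Both were low in all −E libraries and highest in −E−N replicate 3 (log2 fold change of 5.37, standard error 0.295 and adjusted p = 2.3e-07 for Krt8 and log2 fold change of 4.52, standard error 0.236 and adjusted p = 1.68e-07 for Krt18). Krt7 was at 0.713, 1.41 and 1.71 CPM in −E and 19, 15.6 and 32.9 CPM in −E−N (log2 fold change of 4.13 with adjusted p = 2.91e-06).

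TFs of the trophoblast lineage were part of this rise. Gata2 was at 1.28, 3.75 and 2.46 CPM in −E and 59.0, 61.1 and 77.3 CPM in −E−N (log2 fold change of 4.72, standard error 0.402 and adjusted p = 4.93e-06). Cdx2 (ENSMUSG00000029646, chromosome 5 from 147300805 to 147307270), which specifies the trophectoderm in the blastocyst, was at 6.85, 2.12 and 3.24 CPM in −E and 40.5, 47.8 and 53.5 CPM in −E−N (log2 fold change of 3.54, standard error 0.520 and adjusted p = 0.000313). Gcm1, a TF of the labyrinth trophoblast, was at 0.214, 0.141 and 0.239 CPM in −E and 11.4, 9.79 and 16.6 CPM in −E−N (log2 fold change of 5.96, standard error 0.295 and adjusted p = 1.15e-07). The receptor Fgfr2, through which trophoblast stem cells sense Fgf4, was at 0.428, 0.318 and 0.717 CPM in −E and 14.1, 14.96 and 23.3 CPM in −E−N (log2 fold change of 5.14, standard error 0.402 and adjusted p = 2.89e-06). None of the −E libraries came near the −E−N libraries for any of these. Placental genes at low level also rose, among them Plac1 at 0.357, 0.106 and 0.205 CPM in −E and 2.80, 1.83 and 5.73 CPM in −E−N (log2 fold change of 3.93 with adjusted p = 0.000184). Synb, the syncytin gene of the syncytiotrophoblast, was chosen after its values were seen: it had no count in the 3 −E libraries and 2.57, 2.61 and 3.09 CPM in −E−N, at least 26.2-fold higher than the level of 3 counts per library. Id2 was called (log2 fold change of 1.77 with adjusted p = 0.00428), but not without −E replicate 1, 2 or 3 or −E−N replicate 3 (log2 fold changes between 1.26 and 1.90, adjusted p between 0.0108 and 0.0201).

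The trophectoderm list did not move as a whole. Eomes (ENSMUSG00000032446, chromosome 9 from 118478212 to 118486132), a T-box TF of trophoblast stem cells and of the streak, was at 15.8, 13.7 and 13.24 CPM in −E and 2.74, 2.43 and 2.34 CPM in −E−N, a fall in all 3 libraries (log2 fold change of -2.51, standard error 0.312 and adjusted p = 9.47e-05). Tead4, which acts upstream of Cdx2 in the embryo, had a log2 fold change of -1.09. Elf5 and Hand1, which mark the trophoblast state, stayed under the filter on low counts, with at most 16 and 5 counts in any library of the 4 states.

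Of 37 imprinted genes tested, 17 were higher (45.9%, against 6.90% of all tested genes) and 0 lower, with 0 lower also at an unadjusted p under 0.05 and by DESeq2. Without any 1 library the number higher was between 15 and 18. The median of the list was 0.92, and 0.56 without −E−N replicate 3. The summed level was between 1796 and 2179.7 CPM in −E and between 4845 and 8156 CPM in −E−N. H19 (ENSMUSG00000000031, chromosome 7 from 142575529 to 142578143), a noncoding RNA expressed from the maternal allele, was at 3.57, 2.69 and 5.33 CPM in −E and 709.6, 639 and 1338 CPM in −E−N (log2 fold change of 7.85, standard error 0.339 and adjusted p = 5.05e-08). Igf2 (ENSMUSG00000048583, chromosome 7 from 142650766 to 142666816), the fetal growth factor expressed from the paternal allele, was at 0.856, 1.03 and 1.33 CPM in −E and 159, 151 and 234 CPM in −E−N (log2 fold change of 7.39, standard error 0.229 and adjusted p = 3.42e-09). For both, every −E−N library lay far above all −E libraries, and replicate 3 was the highest. Igf2os, annotated on the opposite strand of Igf2 and overlapping it, had 3 counts over the 3 −E libraries and 1610 over those of −E−N. The ratio was 519 with a counting interval from 177 to 2518, and the authors' methods do not say that the counting used strand, so its reads and those of Igf2 are not securely separated. Alleles were not measured.

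Other imprinted loci rose as well. Peg10 (ENSMUSG00000092035, chromosome 6 from 4747306 to 4760517), a gene of retrotransposon origin needed for the placenta, was at 16.8, 22.8 and 55.6 CPM in −E and 1044, 1187 and 2967 CPM in −E−N (log2 fold change of 5.77, standard error 0.513 and adjusted p = 6.84e-06), and Sgce, its divergent neighbour, at 0.963, 1.77 and 3.41 CPM in −E and 10.6, 11.9 and 29.7 CPM in −E−N (log2 fold change of 3.08 with adjusted p = 0.000548). Peg3, a zinc finger gene, was at 35.5, 36.2 and 45.0 CPM in −E and 264, 336 and 561 CPM in −E−N (log2 fold change of 3.31 with adjusted p = 1.24e-06), and Sfmbt2, a Polycomb gene imprinted in trophoblast, at 14.6, 16.8 and 15.3 CPM in −E and 147, 100.1 and 105 CPM in −E−N (log2 fold change of 2.92 with adjusted p = 9.45e-06). Slc22a3, a cation transporter gene whose imprinting is found in the placenta, was at 0, 0.106 and 0.0341 CPM in −E and 8.83, 9.37 and 14.3 CPM in −E−N (log2 fold change of 7.73 with adjusted p = 1.6e-06). Cdkn1c, a Cdk inhibitor, was at 2.89, 1.80 and 3.21 CPM in −E and 10.8, 6.41 and 13.3 CPM in −E−N (log2 fold change of 1.95 with adjusted p = 0.000447). Grb10, a growth inhibitor named after its value was seen, was not called (-0.60). The noncoding RNAs Meg3, Rian and Mirg of the Dlk1-Dio3 domain, also named after their values were seen, were each higher, by 1.19, 1.23 and 1.44 on the log2 scale. Dlk1 itself was not called (0.71).

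All 10 tested genes of the 2-cell stage, a state that rare ESCs enter for a short time, were higher (100%, against 6.90% of all tested genes). Their median was 3.08, and their summed level was between 20.4 and 43.3 CPM in −E and between 148 and 408 CPM in −E−N, with no overlap. Zscan4d (ENSMUSG00000090714, chromosome 7 from 11161374 to 11166159) was at 3.10, 2.65 and 5.60 CPM in −E and 21.9, 23.0 and 62.5 CPM in −E−N (log2 fold change of 3.24, standard error 0.464 and adjusted p = 0.00026). Zscan4c was at 3.85, 3.64 and 9.11 CPM in −E and 29.8, 31.6 and 80.3 CPM in −E−N (log2 fold change of 3.09 with adjusted p = 0.000457) and Zscan4f at 5.56, 6.01 and 12.8 CPM in −E and 41.0, 42.5 and 121 CPM in −E−N (log2 fold change of 3.07 with adjusted p = 0.000698). In each, replicate 3 was the highest library of both states, and replicates 1 and 2 of −E−N still lay above all of −E. Without −E−N replicate 3, 9 members were called higher. The Zscan4 copies lie in a cluster on chromosome 7 and are nearly identical, so reads shared among them were divided by estimation and the values of single copies are uncertain. Zscan4b, Zscan4c, Zscan4d, Zscan4e and Zscan4f are among the 10, which are therefore not 10 separate observations. Outside that cluster Tcstv3 was at 0.214, 0.177 and 0.205 CPM in −E and 1.56, 1.34 and 3.09 CPM in −E−N (log2 fold change of 3.30 with adjusted p = 0.000183). Tcstv1, Tdpoz1, Tdpoz3, Tdpoz4 and AF067063 stayed under the filter.

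**Figure D3:**
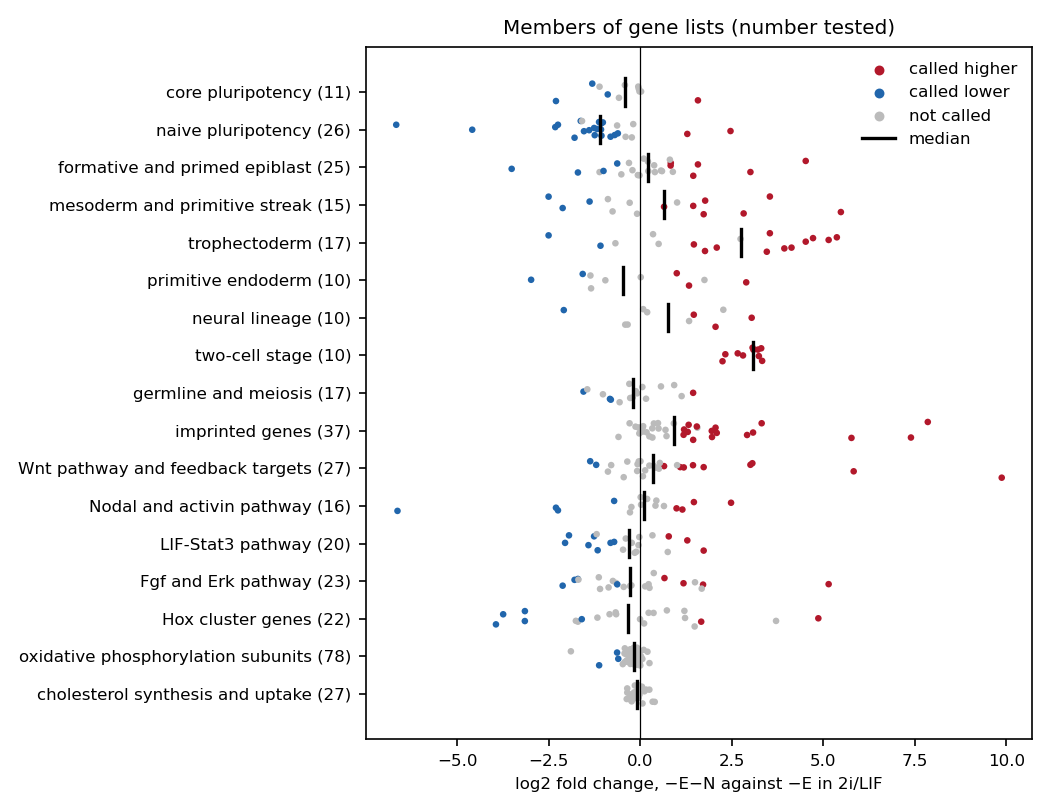
Change of the members of 17 gene lists. The horizontal axis is the log2 fold change of −E−N against −E, each dot is a tested member, red when called higher, blue when called lower and grey when not called, and the black bar is the median of the list. The number tested stands beside each name. The dot furthest right, Lgr5, has no count in −E, and its fitted value depends on the prior count. Dots of the naive list lie mostly left of 0, those of the trophectoderm, 2-cell and imprinted lists mostly right of it, and those of oxidative phosphorylation and cholesterol synthesis close to it.

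The medium activates Wnt signalling through the inhibitor of Gsk3, and negative feedback genes of that pathway were among those that rose. Of 27 tested pathway genes and targets, 9 were higher (33.3%, against 6.90%) and 2 lower, and between 7 and 10 were higher without any 1 library. Of the ligands, Wnt8a was at 0.570, 0.0354 and 0.956 CPM in −E and 15.8, 22.6 and 51.7 CPM in −E−N (log2 fold change of 5.83, standard error 0.688 and adjusted p = 6.21e-05), again highest in replicate 3 and above −E in all 3. Of the nuclear effectors, Lef1 (ENSMUSG00000027985, chromosome 3 from 131110471 to 131224356) was at 2.39, 2.47 and 4.13 CPM in −E and 24.8, 26.7 and 21.0 CPM in −E−N, a separation of several fold in every library (log2 fold change of 3.01, standard error 0.261 and adjusted p = 5.72e-06), while Tcf7l1, Tcf7 and Tcf7l2, listed after their values were seen, were not called (-0.08, 0.43 and 0.36). The secreted inhibitor Dkk1 was at 2.32, 0.778 and 1.13 CPM in −E and 10.46, 13.3 and 11.5 CPM in −E−N (log2 fold change of 3.06 with adjusted p = 0.000158), and Nkd1, an inhibitor of Dishevelled, at 2.32, 2.05 and 2.49 CPM in −E and 4.76, 6.34 and 7.53 CPM in −E−N (log2 fold change of 1.44 with adjusted p = 0.0012). Lgr5, the R-spondin receptor gene of adult stem cells, had no count in −E and 2.77, 4.51 and 4.95 CPM in −E−N, at least 38.8-fold higher than 3 counts per library. Sp5, a direct Wnt target, was at 63.9, 56.7 and 60.6 CPM in −E and 197, 225 and 179 CPM in −E−N (log2 fold change of 1.73 with adjusted p = 0.003), a call that was lost without −E replicate 1, 2 or 3 or −E−N replicate 2 (log2 fold changes between 1.63 and 1.78, adjusted p between 0.0105 and 0.0155). The T-box gene T (1.00), also a Wnt target, was not called.

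In the Nodal and activin pathway 4 of 16 tested were higher and 4 lower (25% each, against 6.90% and 6.21% of all tested genes). Lower were the ligand genes Nodal and Inhbb, the co-receptor Tdgf1 given above and the inhibitory Smad7, and higher were the inhibitors Fst and Lefty1 and the transducers Smad3 and Foxh1. Nodal (ENSMUSG00000037171, chromosome 10 from 61417972 to 61425338) was at 54.1, 40.4 and 30.8 CPM in −E and 12.5, 7.54 and 6.24 CPM in −E−N (log2 fold change of -2.25, standard error 0.232 and adjusted p = 2.14e-05). Inhbb (ENSMUSG00000037035, chromosome 1 from 119415465 to 119422248), the activin B subunit, was at 21.1, 35.8 and 21.8 CPM in −E and 0.196, 0.211 and 0.373 CPM in −E−N, close to absent in −E−N (log2 fold change of -6.64, standard error 0.777 and adjusted p = 5.87e-05). Fst, the antagonist of activin, was at 2.50, 1.91 and 2.87 CPM in −E and 14.7, 14.4 and 11.4 CPM in −E−N (log2 fold change of 2.48 with adjusted p = 4.05e-06), and the transducer Smad3 at 4.24, 7.18 and 6.55 CPM in −E and 14.9, 15.8 and 18.9 CPM in −E−N (log2 fold change of 1.46 with adjusted p = 5.53e-05). Lefty1, a feedback inhibitor, was at 22.4, 21.6 and 32.3 CPM in −E and 67.4, 36.9 and 64.8 CPM in −E−N (log2 fold change of 1.15 with adjusted p = 0.00264), lost without −E replicate 1 or 2 or −E−N replicate 1 or 3 (log2 fold changes between 1.00 and 1.07, adjusted p between 0.0114 and 0.0154). Its paralogue Lefty2 was at 21.9, 17.0 and 22.4 CPM in −E and 20.0, 12.4 and 19.3 CPM in −E−N (log2 fold change of -0.24 with adjusted p = 0.387), with overlap.

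In the LIF and Stat3 pathway 7 of 20 tested were lower (35%, against 6.21%) and 3 higher (15%, against 6.90%). The number lower was 4 without −E replicate 2, −E replicate 3, −E−N replicate 2 or −E−N replicate 3, and the number higher was 1 without −E replicate 1 or 2. Pim1, a kinase gene induced by Stat3, was at 93.4, 100.3 and 90.7 CPM in −E and 35.5, 41.0 and 30.0 CPM in −E−N (log2 fold change of -1.42, standard error 0.0962 and adjusted p = 9.63e-07) and kept its call without any 1 library, as did Klf4. Ocln, which encodes occludin, was at 6.63, 12.6 and 12.8 CPM in −E and 1.14, 2.18 and 4.38 CPM in −E−N (log2 fold change of -2.06 with adjusted p = 0.00545), a call lost without −E−N replicate 1 or 2 or −E replicate 2 or 3 (log2 fold changes between -1.96 and -1.70, adjusted p between 0.0186 and 0.0254). Stat3 itself (-0.03), the LIF receptor subunit Il6st (-0.15) and the feedback inhibitor Socs3 (-0.40), named after their values were seen, were not called.

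In the Fgf and Erk pathway 4 of 23 tested were higher (17.4%) and 4 lower (17.4%), against 6.90% and 6.21% of all tested genes. Mek is inhibited in this medium. Fgf4, the autocrine ligand of ESCs, was at 101, 85.3 and 60.3 CPM in −E and 28.0, 26.0 and 16.9 CPM in −E−N (log2 fold change of -1.80, standard error 0.194 and adjusted p = 3.08e-05), opposite in direction to Fgfr2. Etv4, an Ets factor induced by Erk, was at 138, 129 and 137 CPM in −E and 32.1, 56.4 and 35.4 CPM in −E−N (log2 fold change of -1.71 with adjusted p = 9.44e-05). Without −E replicate 1, −E replicate 2 or −E−N replicate 3 the number higher was 1, 1 and 2, and the number lower was 2 without −E replicate 2 or −E−N replicate 3. Among Bmp pathway and Id genes 3 of 16 were higher (18.8%, against 6.90%) and 0 lower (1 lower at an unadjusted p under 0.05, 0 by DESeq2). The number higher was 1 without any 1 of the 3 −E libraries. Msx1 (ENSMUSG00000048450, chromosome 5 from 37820485 to 37824583), a Bmp target and homeobox TF of the streak, was at 0.250, 0.247 and 0.205 CPM in −E and 3.03, 8.49 and 20.3 CPM in −E−N (log2 fold change of 5.48, standard error 0.667 and adjusted p = 8.12e-05). Its −E−N libraries differ from each other by several fold, and the lowest of them still lay far above −E.

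Markers of formative and primed epiblast, the state that follows the naive one, moved in both directions. Of 25 tested, 6 were higher (24%) and 4 lower (16%), against 6.90% and 6.21% of all tested genes, with a median of 0.22. The number lower was 2 without −E−N replicate 1 or −E replicate 2, and 1 without −E−N replicate 3. Besides Lef1, Lin28a and Krt18, the methyltransferase Dnmt3b was higher, at 141, 123 and 144 CPM in −E and 247, 263 and 216 CPM in −E−N (log2 fold change of 0.83 with adjusted p = 0.000218). Otx2 (ENSMUSG00000021848, chromosome 14 from 48657677 to 48673819), the TF that drives the formative state, was low in all libraries, with 37 counts over −E and 3 over −E−N. Their ratio was 12.8 with a counting interval from 4.04 to 64.7, and the call (adjusted p = 0.00361) was lost without −E replicate 1 or −E−N replicate 1 or 3 (log2 fold changes between -3.52 and -2.96, adjusted p between 0.0143 and 0.0147). Foxd3 was lower (log2 fold change of -1.01 with adjusted p = 0.00252), but not without −E−N replicate 1 or 3 or −E replicate 2 (log2 fold changes between -0.93 and -0.88, adjusted p between 0.0118 and 0.0135). Pou3f1 was not called (0.09), nor were Zic2 and Zic5 (0.59 and -0.22) or Sox3 (0.81). Fgf5 had at most 7 counts in any library.

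Germ layer genes likewise did not move as one. In the mesoderm and primitive streak list 7 of 15 tested were higher (46.7%, between 5 and 8 without any 1 library) and 3 lower (20%), against the same 6.90% and 6.21%, and 9 listed genes stayed under the filter. Sp8, a zinc finger TF, was at 1.93, 1.77 and 1.43 CPM in −E and 11.7, 11.6 and 13.0 CPM in −E−N (log2 fold change of 2.82, standard error 0.190 and adjusted p = 9.13e-07). In primitive endoderm 3 of 10 were higher (30%) and 2 lower (20%). Foxa2 was at 1.43, 0.636 and 0.512 CPM in −E and 6.26, 7.75 and 5.16 CPM in −E−N (log2 fold change of 2.89 with adjusted p = 9.68e-05), while the laminin gene Lama1 was at 7.52, 15.6 and 12.8 CPM in −E and 1.24, 1.13 and 2.17 CPM in −E−N (log2 fold change of -2.98 with adjusted p = 9.57e-06) and the matrix gene Sparc at 217, 199.7 and 171 CPM in −E and 68.0, 71.2 and 57.9 CPM in −E−N (log2 fold change of -1.57 with adjusted p = 2.03e-05). Gata6, the lead TF of that lineage, stayed under the filter with at most 62 counts in a library. In the neural list 3 of 10 were higher and 1 lower, and the number higher was 1 without −E replicate 1, −E replicate 2 or −E−N replicate 2.

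Of 22 Hox genes tested, 5 were lower (22.7%) and 2 higher (9.09%), against 6.21% and 6.90% of all tested genes. The lower ones are Hoxb13, Hoxc10, Hoxc11, Hoxc12 and Hoxc13 of the posterior groups. Hoxc12 was at 4.81, 4.98 and 3.45 CPM in −E and 0.261, 0.317 and 0.271 CPM in −E−N (log2 fold change of -3.95, standard error 0.270 and adjusted p = 1e-06), Hoxc11 had a log2 fold change of -3.75 and Hoxb13 one of -3.16. Hoxc10 (-3.15) lost its call without −E replicate 2 (log2 fold change -2.87, adjusted p = 0.0101), and without −E−N replicate 3 the number lower was 8. The number higher was 0 without −E replicate 1 or 2 and 4 without −E−N replicate 1. Hoxb1, the first gene of its cluster, was at 0.250, 0.0707 and 1.297 CPM in −E and 5.34, 10.7 and 31.8 CPM in −E−N (log2 fold change of 4.86 with adjusted p = 0.00228), a call lost without −E replicate 1 or 2 (log2 fold changes between 4.35 and 4.53, adjusted p between 0.0115 and 0.0119).

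Chromatin genes tied to DNA methylation were split, with 2 of 12 tested higher and 2 lower (16.7% each, against 6.90% and 6.21% of all tested genes). The demethylases Tet1, at 245, 303 and 283 CPM in −E and 159.8, 157 and 93.0 CPM in −E−N (log2 fold change of -1.02 with adjusted p = 0.000537), and Tet2 (-1.25) were lower. Besides Dnmt3b, Uhrf2 was higher, at 55.3, 40.3 and 40.1 CPM in −E and 138, 120.1 and 114 CPM in −E−N (log2 fold change of 1.45 with adjusted p = 8.46e-05), and the other 8 of the 12 tested genes, Dnmt1, Dnmt3a and Uhrf1 among them, were not called. In Polycomb repressive complex 2, 1 of 11 was called, and it was higher (9.09%, against 6.90%). This was Rbbp7, at 313, 289.5 and 316 CPM in −E and 582, 571 and 633 CPM in −E−N (log2 fold change of 0.96, standard error 0.0659 and adjusted p = 1.02e-06).

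Of 26 tested nuclear receptors, 2 were higher (7.69%) and 3 lower (11.5%), against 6.90% and 6.21% of all tested genes. The number higher was 1 without −E replicate 1 or −E−N replicate 2, and the number lower was between 2 and 4 without any 1 library. Besides Esrrb and Nr0b1, Pparg, the receptor of adipocytes and of the placenta, had no count in −E and 2.18, 1.65 and 2.31 CPM in −E−N, at least 19.5-fold higher than 3 counts per library. Nr5a1, the paralogue of Nr5a2, stayed under the filter. Of 17 steroid and bile acid genes known as targets of Nr5a receptors in other tissues, 6 were expressed enough to be tested and 2 of these were lower, Nr0b1 and Cyp11a1. Cyp11a1, the side chain cleavage enzyme, was at 2.39, 3.36 and 3.00 CPM in −E and 0.749, 0.775 and 0.441 CPM in −E−N (log2 fold change of -2.15 with adjusted p = 0.00201), and its call was lost without −E−N replicate 3 (log2 fold change -1.93, adjusted p = 0.0105). Star, Scarb1 and Fdx1 were not called (0.34, -0.38 and -0.42), and Cyp7a1, Cyp8b1 and Nr0b2 were under the filter.

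Cdh1, which encodes E-cadherin, was at 429.7, 453 and 374 CPM in −E and 422, 445 and 360.0 CPM in −E−N (log2 fold change of -0.04 with adjusted p = 0.844), with overlap. In the list of the epithelial to mesenchymal transition 8 of 20 tested were higher (40%) and 1 lower (5%), against 6.90% and 6.21% of all tested genes. The number lower was 0 without −E−N replicate 1 or 2 or −E replicate 2 or 3. Those that rose include epithelial genes, such as the splicing regulator Esrp1 (log2 fold change of 2.38 with adjusted p = 0.000232), the claudin Cldn6 (log2 fold change of 1.85 with adjusted p = 5.63e-05) and Krt8, beside the repressors Snai1 (log2 fold change of 1.77 with adjusted p = 0.000147) and Zeb2 (log2 fold change of 2.09 with adjusted p = 0.000345). In the adhesion list 4 of 18 were higher and 4 lower (22.2% each, against the same 6.90% and 6.21%). The number higher was 2 without −E replicate 2, −E replicate 3 or −E−N replicate 3. Icam1 was at 98.0, 97.4 and 81.7 CPM in −E and 35.3, 32.7 and 26.9 CPM in −E−N (log2 fold change of -1.55 with adjusted p = 4.33e-06), and the hyaluronan receptor Cd44 rose (log2 fold change of 2.33 with adjusted p = 0.000351). Markers of fibroblasts were summed to between 20.8 and 24.4 CPM in −E and between 13.0 and 24.6 CPM in −E−N. The paper gives gelatine as the coating for ESC culture and mentions no feeder cells. Of 11 listed 5 were tested, with 1 higher (Tagln, 3.41) and 1 lower (Thy1, -2.31), and Dcn had at most 1 count in any library. The sums overlap between the groups, and the part of these markers in the results was not tested.

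Lists of general cell functions were read against the 13.1% of all tested genes called, 6.90% higher and 6.21% lower. Counts at an unadjusted p under 0.05 have another background, 6063 of all 14355 tested genes in either direction. Of 27 genes of cholesterol synthesis and uptake 0 were called by edgeR or DESeq2, with 7 at an unadjusted p under 0.05, 1 higher and 6 lower. Of 78 subunits of oxidative phosphorylation 3 were lower and 0 higher, with a median of -0.18. At an unadjusted p under 0.05, 40 were lower and 2 higher, DESeq2 called 3 lower and 0 higher, and the number lower was 1 without −E replicate 1 or −E−N replicate 3. Of 81 cytosolic ribosomal protein genes 1 was called, lower, and of 78 mitochondrial ones 2, 1 in each direction. The cytosolic call was lost without −E replicate 1, −E−N replicate 1 or −E replicate 3, the mitochondrial rise without −E replicate 2 or −E−N replicate 3, and the mitochondrial fall without these or −E replicate 1. Of 28 genes in each list, 3 were called in glycolysis and 2 in the citrate cycle. The number higher in glycolysis went from 2 to 1 without −E replicate 2 or 3 or any 1 library of −E−N, and the number lower from 1 to 2 without −E replicate 1 and to 0 without −E replicate 2. Both calls in the citrate cycle were lower, with 1 left without −E replicate 1 or −E−N replicate 2 and 0 without −E−N replicate 1 or −E replicate 2. Cell cycle genes gave 1 higher and 3 lower of 18 in the Myc and proliferation list (1 lower without −E replicate 1) and 1 of 12 among D-type cyclins and Cdk inhibitors, the imprinted Cdkn1c. Of 17 p53 targets 3 were called, with Cdkn1a, the best known of them and named after its value was seen, at 0.49 and not called. The number of p53 targets higher went from 2 to 1 without −E replicate 2, −E replicate 3 or −E−N replicate 3. Germline and meiosis genes gave 1 higher (5.88%) and 3 lower (17.6%) of 17, with 0 higher without −E replicate 1, −E replicate 2 or −E−N replicate 3 and 2 higher without −E replicate 3. Of the lower ones, Dazl was at 37.4, 51.7 and 46.0 CPM in −E and 14.01, 15.9 and 16.1 CPM in −E−N (log2 fold change of -1.55 with adjusted p = 0.000158). Collagen genes gave 4 higher and 2 lower of 25, and the number higher was 1 without −E replicate 1, −E replicate 2 or −E−N replicate 3 and 2 without −E replicate 3. The number lower was 1 without replicate 1 of either state, −E replicate 2 or −E−N replicate 3.

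The genes with the largest falls and rises were not all members of these lists. Ddr2 (ENSMUSG00000026674, chromosome 1 from 169972307 to 170110762), a collagen receptor kinase, was at 18.5, 27.2 and 17.0 CPM in −E and 0.358, 0.246 and 0.271 CPM in −E−N (log2 fold change of -6.13, standard error 0.303 and adjusted p = 1.15e-07). Dpp4 (ENSMUSG00000035000, chromosome 2 from 62330073 to 62412231), a surface peptidase, was at 45.1, 60.2 and 65.0 CPM in −E and 1.08, 1.34 and 2.31 CPM in −E−N (log2 fold change of -5.17, standard error 0.401 and adjusted p = 2.74e-06). Slc28a3, a nucleoside transporter gene, was at 17.0, 12.4 and 8.84 CPM in −E and 0.163, 0.458 and 0.237 CPM in −E−N (log2 fold change of -5.47 with adjusted p = 4.76e-06). All were reduced to a small part of the −E level in each library. Rgs11 and Arhgdig, which lie next to each other and overlap on chromosome 17 (from 26202951 to 26211324 on the plus strand and from 26199183 to 26207786 on the minus strand), fell together, with Rgs11 at 16.6, 12.9 and 8.91 CPM in −E and 0.293, 0.387 and 0.339 CPM in −E−N and Arhgdig at 39.0, 20.9 and 15.3 CPM in −E and 0.782, 1.34 and 1.46 CPM in −E−N (log2 fold change of -5.22 with adjusted p = 4.93e-07 and log2 fold change of -4.39 with adjusted p = 4.93e-06). As they overlap on opposite strands, reads of the one could be counted for the other if strand was not used. Zan, which encodes the sperm protein zonadhesin, was at 14.8, 11.98 and 12.2 CPM in −E and 0.391, 0.317 and 0.170 CPM in −E−N (log2 fold change of -5.45 with adjusted p = 4.68e-06). Eif4e1b, an oocyte form of the cap-binding factor, fell as well (log2 fold change of -4.52 with adjusted p = 1.45e-06), as did Ttll6, Islr2 and Mypn (between -3.71 and -3.46). Cd37 (-3.82) was lost without −E−N replicate 1 or 2 (log2 fold changes between -3.84 and -3.51, adjusted p between 0.013 and 0.0131), and Rhobtb1 (-3.77) without −E−N replicate 2 (log2 fold change -3.51, adjusted p = 0.0117).

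Of the largest rises outside the lists, Gjb2, a connexin gene of epithelia and placenta, was at 0.178, 0.141 and 0.273 CPM in −E and 23.9, 19.2 and 28.5 CPM in −E−N (log2 fold change of 6.88, standard error 0.406 and adjusted p = 4e-07). Slc13a4, a sulphate transporter gene known from the placenta, was at 0.606, 0.247 and 1.02 CPM in −E and 30.3, 23.4 and 41.0 CPM in −E−N (log2 fold change of 5.64 with adjusted p = 8.92e-07). Arhgef6, an exchange factor for Rac, was at 0.570, 0.778 and 0.478 CPM in −E and 21.9, 17.5 and 29.1 CPM in −E−N (log2 fold change of 5.22 with adjusted p = 2.3e-07). In these the −E−N libraries lie within a narrow range of each other. Tshz1, a zinc finger TF, was at 0.143, 0.354 and 0.307 CPM in −E and 2.41, 5.70 and 19.9 CPM in −E−N (log2 fold change of 5.10 with adjusted p = 0.00026), and its level in replicate 3 was several times that in replicate 1.

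The effect of Nr5a2 loss was next compared with the effect of the same disruption while the Esrrb transgene was on, −N against +E+N, which uses none of the same libraries. With Esrrb, 524 genes were called (3.65%), 231 higher (1.61%) and 293 lower (2.04%). Of the 1883 genes called without Esrrb, 459 (24.4%) were called with Esrrb too, which is 87.6% of the 524, and all 459 went the same way. Of the other 1424, 1363 (95.7%) had the same sign. Over all tested genes the Pearson correlation of the effects was 0.801, and the share of same sign over all of them was not counted. Of the trophectoderm list 6 of 17 were called higher with Esrrb too, and of the 2-cell list 2 of 10, against 1.61% of all tested genes. The medians of these lists were 0.64 and 2.31. The rises at the imprinted growth genes were likewise already present with Esrrb. H19 was at 1.45, 1.21 and 1.97 CPM in +E+N and 265, 241 and 229 CPM in −N, and Igf2 at 0.756, 0.697 and 0.898 and 71.6, 64.2 and 53.7 CPM (log2 fold changes of 7.30 and 6.32). Of 26 naive genes tested, 3 were lower with Esrrb present and 2 higher, against 2.04% and 1.61% of all tested genes, with a median of -0.29. Nanog was at 772, 927 and 1000.1 CPM in +E+N and 564, 632 and 679 CPM in −N (log2 fold change -0.53, adjusted p = 0.00407), which missed the limit on the fold change. Passing a threshold in one background and not in the other does not show a difference, and the interaction below is the test of it.

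The interaction, the effect without Esrrb minus the effect with it, was called for 44 genes (0.307%), 14 higher (0.0975%) and 30 lower (0.209%). At an unadjusted p under 0.05 there were 1962, while DESeq2 called 303 and limma on log2(TPM + 1) called 11. Of the 44, 42 were also called without Esrrb, and in 35 the change was of the same sign and larger without Esrrb. Lrrc2 was at 26.1, 25.5 and 25.1 CPM in −E and 4.17, 3.70 and 2.92 CPM in −E−N, against 32.4, 34.2 and 39.4 CPM in +E+N and 19.4, 21.9 and 23.6 CPM in −N, an interaction of -2.12 (standard error 0.174, adjusted p = 0.000415). Eif4g3, a translation initiation factor gene, was at 3.35, 5.30 and 4.98 CPM in −E and 57.7, 51.1 and 61.4 CPM in −E−N, against 7.56, 9.47 and 9.63 and 20.1, 29.4 and 25.5 CPM, an interaction of 2.15 (standard error 0.246, adjusted p = 0.00286). Fabp3, a fatty acid-binding protein gene, was at 4.53, 8.17 and 8.88 CPM in −E and 82.96, 73.4 and 98.9 CPM in −E−N, against 51.6, 37.8 and 50.1 and 78.9, 60.8 and 70.0 CPM, an interaction of 2.98 (standard error 0.286, adjusted p = 0.000626). For Fabp3, −E lay below +E+N in every library, while the ranges of −N and −E−N overlap. Notch4 was at 19.3, 20.4 and 15.9 CPM in −E and 3.78, 2.39 and 1.46 CPM in −E−N, against 15.7, 15.9 and 17.9 CPM in +E+N and 23.8, 24.1 and 25.5 CPM in −N, so that loss of Nr5a2 went with lower counts without Esrrb and with higher counts, not called, with it. Its interaction was -3.43 (standard error 0.311, adjusted p = 0.000566). These 4 were called without any 1 of the 12 libraries.

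The other genes named for the interaction depended more on single libraries. For the Lefty genes the effect was larger with Esrrb. Lefty1 rose from 6.11, 6.46 and 4.32 CPM in +E+N to 61.7, 84.3 and 60.5 CPM in −N, more than it did without Esrrb, an interaction of -2.46 (standard error 0.345, adjusted p = 0.00645) that was not called without 9 of the 12 libraries in turn. Lefty2 gave -2.33 (standard error 0.290, adjusted p = 0.00388), not called without 4 of them. Krt8, at 10.53, 5.87 and 8.36 CPM in +E+N and 47.8, 42.0 and 46.0 CPM in −N, gave 2.92 (standard error 0.377, adjusted p = 0.00435), not called without 7. Fst gave 2.08 (standard error 0.286, adjusted p = 0.00611), not called without 8. The highest adjusted p in these was 0.0229. Of the naive list, Jam2 (-1.81), Dppa2 (-1.31), Ooep (-1.02) and Prdm14 (-0.80) were called, with a larger negative estimate without Esrrb than with it in each. Of these, the interaction was followed through the libraries left out for Jam2 alone. The number of genes called for the interaction was 7 without −N replicate 2, 10 without −N replicate 3, +E+N replicate 2 or +E+N replicate 3, 11 without −E replicate 2, 16 without +E+N replicate 1, 17 without −E replicate 1, 21, 23 and 24 without −E−N replicate 3, −E−N replicate 2 and −E replicate 3, and 40 and 52 without −E−N replicate 1 and −N replicate 1.

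**Figure D4:**
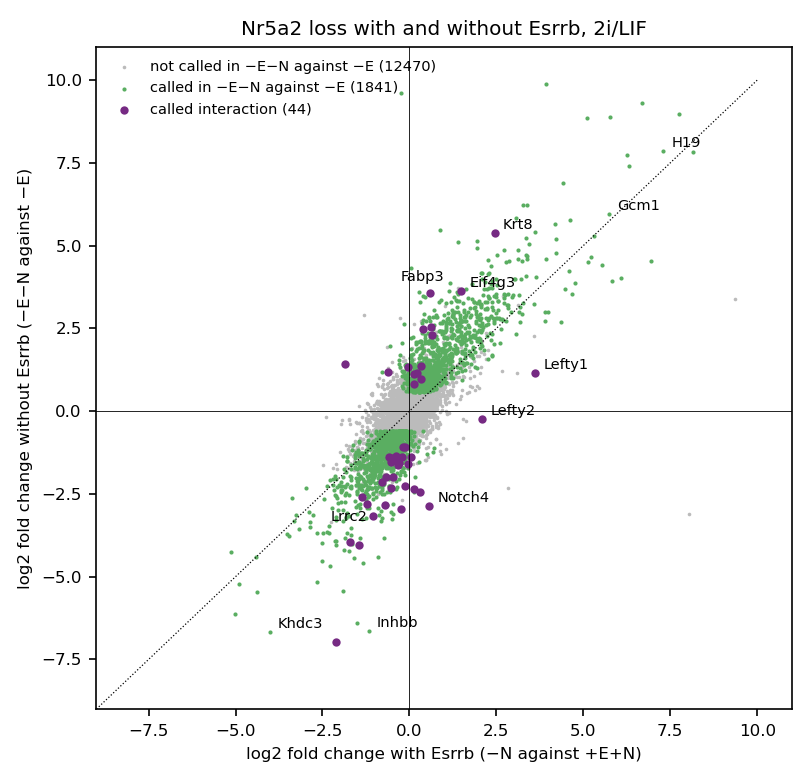
Loss of Nr5a2 with and without Esrrb. The horizontal axis is the log2 fold change of −N against +E+N and the vertical axis that of −E−N against −E, with each dot a tested gene, green when called without Esrrb, purple for the 44 with a called interaction and grey otherwise. The dotted line marks equal change. Most green dots share the sign of both axes, while Lefty1 and Lefty2 lie right of the line.

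The same comparison in FCS/LIF gave fewer calls and partly other genes. In a fit of all 20 libraries, 437 of 16147 genes were called in FCS/LIF (2.71%, 2 libraries against 2), 280 higher (1.73%) and 157 lower (0.972%), and 2350 in 2i/LIF (14.6%, 3 against 3), of which 1277 were higher (7.91%) and 1073 lower (6.65%). Called in both were 198 genes, 8.43% of those in 2i/LIF and 45.3% of those in FCS/LIF, and 185 of them went the same way. Of the genes called in 2i/LIF alone, 64.9% had the same sign in FCS/LIF. Over all tested genes the Pearson correlation of the effects was 0.271. The share of same sign over all of them was not counted, so 64.9% has no baseline here. The difference of the effects was itself past the threshold for 1114 genes (6.90%), 518 with the higher value in 2i/LIF (3.21%) and 596 with the lower (3.69%), of which 769 were called in 2i/LIF. The medium cannot be told apart from the culture batch. The number of genes with a called difference fell to 635, 602, 699 and 548 without FCS/LIF −E replicate 1, −E replicate 2, −E−N replicate 1 and −E−N replicate 2.

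Genes of the 2-cell stage, higher in 2i/LIF, were not called in FCS/LIF. In this fit 12 of them were tested and 0 were called in FCS/LIF by edgeR. At an unadjusted p under 0.05, 2 were lower and 0 higher, against 3924 of all 16147 tested genes in either direction. The difference between media was called for 10. Zfp352 and Tdpoz4, named after their values were seen, were the exceptions, the former with an adjusted p of 0.010001. Copies of Zscan4, which share reads, are among the 10, so these are not 10 separate observations either. Zscan4d in FCS/LIF was at 8.64 and 14.6 CPM in −E and 6.39 and 7.27 CPM in −E−N (log2 fold change of -0.76 with adjusted p = 0.354), a difference of 3.99 (standard error 0.641, adjusted p = 0.000486). The imprinted growth genes rose in both media and started from another level. In FCS/LIF, H19 was at 242 and 358 CPM in −E and 1496 and 1913 CPM in −E−N (log2 fold change of 2.51 with adjusted p = 0.000121), and Igf2 at 327 and 450.1 CPM in −E and 771 and 1132 CPM in −E−N (log2 fold change of 1.29 with adjusted p = 0.00174). Their −E libraries in FCS/LIF were far above those in 2i/LIF, and the difference of the effects was 5.33 (standard error 0.426, adjusted p = 9.5e-07) for H19 and 6.09 (standard error 0.372, adjusted p = 1.47e-07) for Igf2. Krt8 followed the same pattern, at 254 and 344 CPM in −E and 735 and 1176 CPM in −E−N in FCS/LIF (log2 fold change of 1.68 with adjusted p = 0.00159).

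Naive genes were called lower in both media, with 12 of 26 called lower in FCS/LIF, against 0.972% of all tested genes there. Their median in FCS/LIF was -0.65. Zfp42 was in FCS/LIF at 159 and 136 CPM in −E and 45.8 and 47.1 CPM in −E−N (log2 fold change of -1.67 with adjusted p = 2.71e-06), and Nr0b1 was at 8.94 and 7.27 CPM in −E and 0.868 and 0.866 CPM in −E−N (log2 fold change of -3.22 with adjusted p = 0.000162). Pim1 went opposite ways, at 72.8 and 78.5 CPM in −E and 115 and 106 CPM in −E−N in FCS/LIF (log2 fold change of 0.55 with adjusted p = 0.00519), below the limit on the fold change, with a difference between media of -1.97 (standard error 0.147, adjusted p = 5.58e-07). Several of the largest falls in 2i/LIF came from genes that were close to absent in FCS/LIF. Slc28a3 was at 0.375 and 0.572 CPM in −E and 0.210 and 0.420 CPM in −E−N there and Zan at 0.352 and 0.358 CPM in −E and 0.131 and 0.124 CPM in −E−N, with differences of -4.91 (standard error 0.802, adjusted p = 0.000547) and -4.01 (standard error 0.912, adjusted p = 0.00668). The call for Zan was lost without 7 of 10 libraries in turn and that for Slc28a3 without FCS/LIF −E−N replicate 2 (adjusted p up to 0.0553 and 0.0251). Arhgdig, by contrast, was present in FCS/LIF, at 8.96 and 8.79 CPM in −E and 10.3 and 8.14 CPM in −E−N, and did not pass the test there (log2 fold change of 0.05 with adjusted p = 0.949), a difference of -4.45 (standard error 0.483, adjusted p = 1.65e-05) that kept its call without any 1 library.

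**Figure D5:**
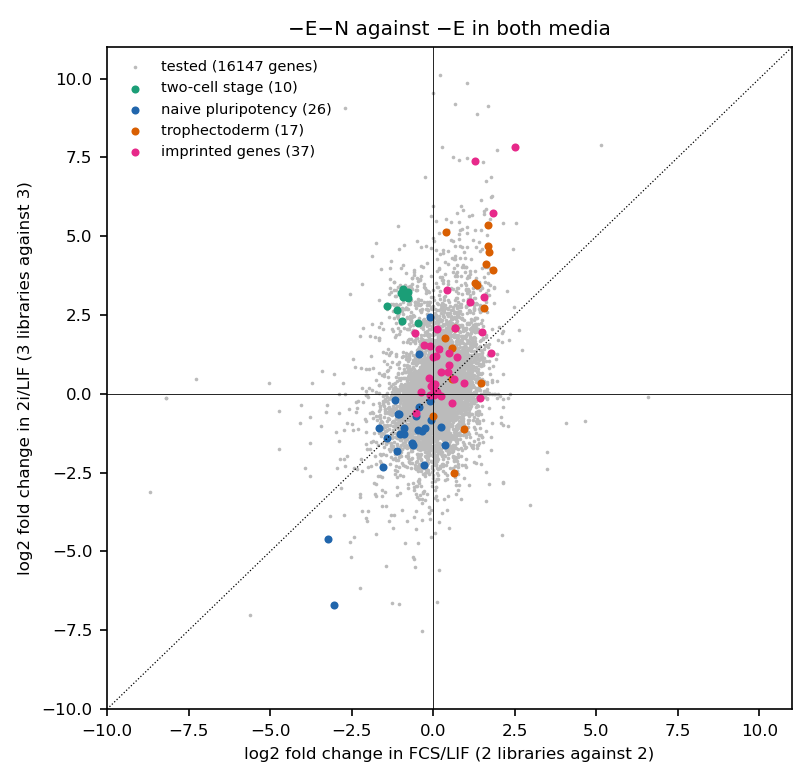
Loss of Nr5a2 in Esrrb-depleted cells in both media, from the fit of all 20 libraries. The horizontal axis is the log2 fold change of −E−N against −E in FCS/LIF (2 libraries against 2) and the vertical axis that in 2i/LIF (3 against 3), with each dot a tested gene, coloured by list, and the dotted line marks equal change. Genes of the 2-cell stage lie above 0 on the vertical axis and below 0 on the horizontal one, naive genes lie mostly low on both, and the imprinted and trophectoderm genes with the largest rises lie above the line.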

How the data were processed

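RNA-seq of the 6 compared libraries was analysed within a fit of the 12 libraries in 2i/LIF (4 states, 3 replicates each). Per the labels, the authors' processing used STAR, RSEM, Bowtie2 and mm10, with no versions given. The deposited gene values are expected counts that the authors obtained from RSEM and left unnormalised. The deposited TPM values were made by the authors with RSEM from the same reads. Libraries were stranded, and none of the RSEM options that the authors list sets the strand.

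Expected counts were rounded and fitted with edgeR 4.0.16 in R 4.3.3, by TMM normalisation and its quasi-likelihood test. A gene entered when all replicates of any 1 state held 20 counts or more. Genes were called at a Benjamini-Hochberg adjusted p under 0.01 and a fold change over 1.5, and the interaction and medium differences at the adjusted p alone. The medium difference came from a fit of all 20 libraries as 8 groups. Groups were taken from the labels. A fold against 3 libraries with no count was taken against 3 counts per library, and counting intervals are at the 95% level and cover counting error only. Coordinates come from GENCODE vM21, and sequences from GRCm38.p6 and its RefSeq promoter windows.

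The genes named are both targeted genes, the 15 largest falls and 15 largest rises with a mean of at least 100 counts and the same direction in all same-numbered pairs, up to 6 called members of each of 33 lists, every tested member of the core, naive and formative lists, and the extremes of the interaction and medium difference. Some genes that this rule names are not reported here. The comparison, its members and the lists were chosen with earlier results of these data known. Alternatives were DESeq2 1.42.0, other size factors, other filters, the replicate number as a block, limma 3.58.1 on TPM in log2 with a pseudocount of 1 or 0.1, other thresholds, other sets of libraries and each library left out in turn. The scripts were tested on simulated data.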

Additional observations from a re-analysis of the deposited data

Results flagged for a closer look

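The effect of Nr5a2 loss differed between cells without and with Esrrb for 44 genes by the interaction term. The log2 differences, without Esrrb minus with it, were negative for Notch4 (-3.43), Slc15a1 (-2.70), Lefty1 (-2.46), Lefty2 (-2.33), Hoxc12 (-2.24), Hoxb13 (-2.12), Lrrc2 (-2.12), Jam2 (-1.81), Dppa2 (-1.31), Ooep (-1.02), Pim1 (-0.91) and Prdm14 (-0.80). They were positive for Rbbp7 (0.63), Padi2 (1.80), Gprc5c (1.93), Fst (2.08), Eif4g3 (2.15), Krt8 (2.92) and Fabp3 (2.98). Of the 12 genes named for this term, Slc15a1 and Gprc5c were not called without 10 and 9 of the 12 libraries in turn (adjusted p up to 0.0335 and 0.0273), Padi2 without 4 (up to 0.0189) and Jam2 without 2 (up to 0.0130). The interactions of Hoxc12, Hoxb13, Dppa2, Ooep, Pim1, Prdm14 and Rbbp7 were not followed through the libraries left out.

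The effect in Esrrb-depleted cells differed between 2i/LIF and FCS/LIF for 1114 genes by the contrast of the effects in one fit. The log2 differences, 2i/LIF minus FCS/LIF, were negative for Inhbb (-5.60), Slc28a3 (-4.91), Rgs11 (-4.63), Arhgdig (-4.45), Zan (-4.01) and Ddr2 (-3.89). They were positive for Gcm1 (5.09), H19 (5.33), Msx1 (5.39), Igf2 (6.09), Igf2os (7.53) and Car4 (8.55). Inhbb was not called without replicate 2 of either FCS/LIF state (adjusted p up to 0.0534). Igf2os had 3 counts over the −E libraries in 2i/LIF and Car4 had none, so their fitted differences depend on the prior count and are no bounds.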

How the results depend on the processing

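The number of genes called between −E−N and −E, 1883, stayed within 1.5 times under every alternative run, from 1362 to 1646 without any 1 library, 2539 with the replicate block and 2763, the highest, with no limit on the fold change. The number with a called interaction, 44, was 303 with DESeq2, 212 with no filter, 200 at an adjusted p under 0.05, 11 and 7 with limma on log2(TPM + 1) and log2(TPM + 0.1), and between 7 and 52 without any 1 library. The number with a called medium difference, 1114, was 1770 with DESeq2, 2078 with no filter, 2371 at an adjusted p under 0.05, 727 with limma on log2(TPM + 0.1), and between 548 and 1146 without any 1 library, where a lone FCS/LIF library was assumed to vary like the other groups. The causes were not tested. Recomputing the single genes named for the interaction and the medium difference, under DESeq2, the block and each library left out, was chosen after seeing the data, and DESeq2 and the block kept the calls of all 24. Of 159 named genes called, 47 lost the call without at least 1 library and 112 kept it without any, 27 lost it with limma on log2(TPM + 1) and 0 with DESeq2. Estimates near 0 changed sign. Leaving out 1 library gave Dnmt3l from -0.0018 to 0.402, Tcf3 from -0.033 to 0.0537, Zscan10 from -0.154 to 0.137, Sall4 from -0.133 to 0.02001, Grhl3 from -0.0370 to 0.862, Zfp281 from -0.0644 to 0.0306 and Pou3f1 from -0.188 to 0.222, and limma on log2(TPM + 1) gave Zfp281 at 0.0173.

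With the replicate number as a block the interaction was called for 324 genes (142 higher and 182 lower, against 14 and 30) and the medium difference for 2410. Same-numbered libraries of −E and −E−N deviated together with correlations from 0.0991 to 0.427 and those of +E+N and −N from 0.158 to 0.553, and all 6 libraries of −E and −E−N correlated best with their own number, which is a hint from the data and not from the design. The labels do not say what a number shares.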
